A study of Mus musculus with 36 samples.

Results

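SCC25 is an established human oral carcinoma cell line. SCC25 cells carrying PLKO, the non-targeting shRNA vector, were grown as orthotopic xenografts in NSG (NOD-SCIDγ) mice, which lack functional lymphocytes and whose age and sex are not given in the sources used here, and the mice ate either a diet rich in palmitic acid (palmitate) or a control diet. Total RNA of the stromal cells labelled neural fraction was amplified and measured on mouse Affymetrix arrays, so every probe set is of a mouse gene. Whether RNA of the human cells added to the signal was not tested. The comparison described here takes the 3 palmitate arrays and the 3 control arrays of these tumours, 6 of the 36 arrays in the series, chosen by their titles, and reads them across all genes. The arrays of a diet are labelled as technical replicates of 1 biological replicate. Their labels leave unstated how many mice, tumours or RNA extracts lie behind them. Every p-value below therefore measures only the spread between such arrays, except those of the fit to averages that sets SCC25 against VDH15. Comparison groups were SCC25 tumours with an shRNA against CD36, on palmitate and control diets (3 arrays each), and 2 experiments with non-targeting tumours of cells labelled VDH15, with 4 and 3 arrays a diet. Because the shRNA is expressed by the human cells, the mouse Cd36 probe sets are no check of it.

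Palmitic acid is a saturated fatty acid of the diet, and CD36 is a membrane receptor that carries fatty acids into cells. Peripheral nerve holds Schwann cells, which wrap or accompany axons, together with fibroblasts, blood vessels and a matrix rich in collagens. After injury, Schwann cells turn on a repair programme and the nerve lays down new matrix. Oral mucosa next to such nerves is a stratified epithelium whose upper layers build keratins, a cornified envelope and barrier lipids.

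One probe set stood for each gene, the one with the highest mean, and values are log2 intensities. Of 17097 genes, the lowest 25% by mean level (under 5.19 log2) were left out, which left 12823. Array medians lay between 5.99 and 6.02 log2. Arrays of the same diet correlated across genes at 0.994 to 0.996, and arrays of different diets at 0.963 to 0.969. The median SD of a gene over its 3 arrays was 0.0893 log2 on palmitate and 0.0911 log2 on control. All 12 SCC25 arrays share 1 labelled hybridisation batch and 1 scan batch, so no labelled batch separates the diets. On the first principal component of these 12 arrays, which held 51.8% of the variance, the palmitate arrays of non-targeting tumours lay at 27.2, 29.9 and 26.0 and their control arrays at -21.7, -20.2 and -20.0. The shCD36 arrays lay between them, at -1.58, -4.98 and -5.67 on palmitate and -4.34, -2.03 and -2.64 on control.

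Of the 12823 genes, 1274 were higher on the palmitate diet (9.94%) and 1180 were lower (9.2%) at a limma adjusted p under 0.05, 19.1% in all. The split between the directions depended on the processing: it was 1253 higher and 1714 lower when the arrays were quantile normalized again, and 1323 higher and 1356 lower with the mean of all probe sets of a gene. The median difference over all genes was -0.03 log2. With a difference of at least 1 log2, which is a 2-fold change, 343 genes were higher (2.67%) and 113 were lower (0.881%), together 3.56%. None of these 456 genes had overlapping arrays of both diets, while 35.1% of all genes tested had arrays that did not overlap. The large differences leaned upward: 112 genes were higher by at least 2 log2, against 29 that were lower by as much, although at 3 log2 the counts were 22 and 10 and at 4 log2 they were 3 and 3. The 15 genes with the highest differences were mostly genes of the extracellular matrix and of vessels, and the 15 with the lowest were mostly genes of hard keratins and the cornified layer of epithelium.

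The highest difference was that of Col3a1 (chromosome 1), the chain of type III collagen, a fibrillar collagen of soft tissue. Col3a1 had 14.62, 14.58 and 14.50 log2 on palmitate arrays, against 9.42, 9.44 and 10.60 log2 on control arrays. The 3 palmitate arrays were close together and far above every control array, of which the third was more than 1 log2 above the others. The difference was 4.75 ± 0.39 log2 (SE), which is 26.8-fold (limma adjusted p = 3.3e-07), and it lay between 4.54 and 5.13 log2 when single arrays were left out. It fell to 3.85 log2 when the arrays were quantile normalized again. A second Col3a1 probe set differed by only 0.94 log2, so both probe sets rank the diets alike but disagree on the size. Col1a1, a chain of type I collagen, had 14.78, 14.33 and 14.40 log2 on palmitate arrays, against 9.70, 9.90 and 10.43 log2 on control arrays. Its difference was 4.49 ± 0.45 log2, or 22.5-fold (limma adjusted p = 3.1e-06), and 3.58 log2 when the arrays were quantile normalized again.

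Ptx3, a secreted pentraxin that helps assemble hyaluronan matrix, had 12.42, 13.15 and 12.73 log2 on palmitate arrays, against 8.24, 8.19 and 9.43 log2 on control arrays. Tnfaip6, an inflammation-induced hyaluronan-binding protein, had 12.17, 12.54 and 12.15 log2 on palmitate arrays, against 8.05, 8.10 and 9.40 log2 on control arrays. For both genes control array 3 stood apart above the other control arrays, as for Col3a1, and still lay well under every palmitate array. The differences were 4.15 ± 0.42 log2 for Ptx3 (limma adjusted p = 3.1e-06), or 2.17 log2 averaged over its probe sets, and 3.76 ± 0.44 log2 for Tnfaip6 (limma adjusted p = 1.3e-05). Control array 3 was the highest control array in 141 of the 343 genes that rose by at least 1 log2, and the share over all genes tested was not counted. Fstl1, a secreted follistatin-like glycoprotein, had 13.08, 13.57 and 13.28 log2 on palmitate arrays, against 9.45, 8.98 and 9.78 log2 on control arrays, and its second probe set differed by 4.28 log2. Crispld2, a secreted cysteine-rich protein, was at 11.90, 12.41 and 12.004 log2 on the palmitate diet and 8.28, 8.17 and 9.92 log2 on the control diet, again with control array 3 above the rest.

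The other 9 of the 15 highest genes were higher by 3.22 to 3.67 log2. They included Col6a3 (3.67) and Col5a2 (3.22), collagen chains, Bgn (3.35), the small proteoglycan biglycan, Thbs4 (3.32), a thrombospondin, and Dpt (3.26), the matrix protein dermatopontin. Col4a2 (3.30) encodes a basement membrane collagen, Cd93 (3.39) a receptor of endothelial cells, Rgs5 (3.26) a G protein regulator found in pericytes, and Galnt15 (3.43) an enzyme of O-glycosylation. Rgs5 was the least even of them, at 9.90, 9.23 and 9.94 log2 on the palmitate diet and 5.73, 7.48 and 6.07 log2 on the control diet. Other probe sets gave smaller differences for Galnt15 (0.37 log2) and Cd93 (1.13 log2), so the size for these genes depends on the probe set. Averaged over all probe sets, the differences were 1.90 log2 for Galnt15 and 1.58 log2 for Cd93.

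**Figure D1:**
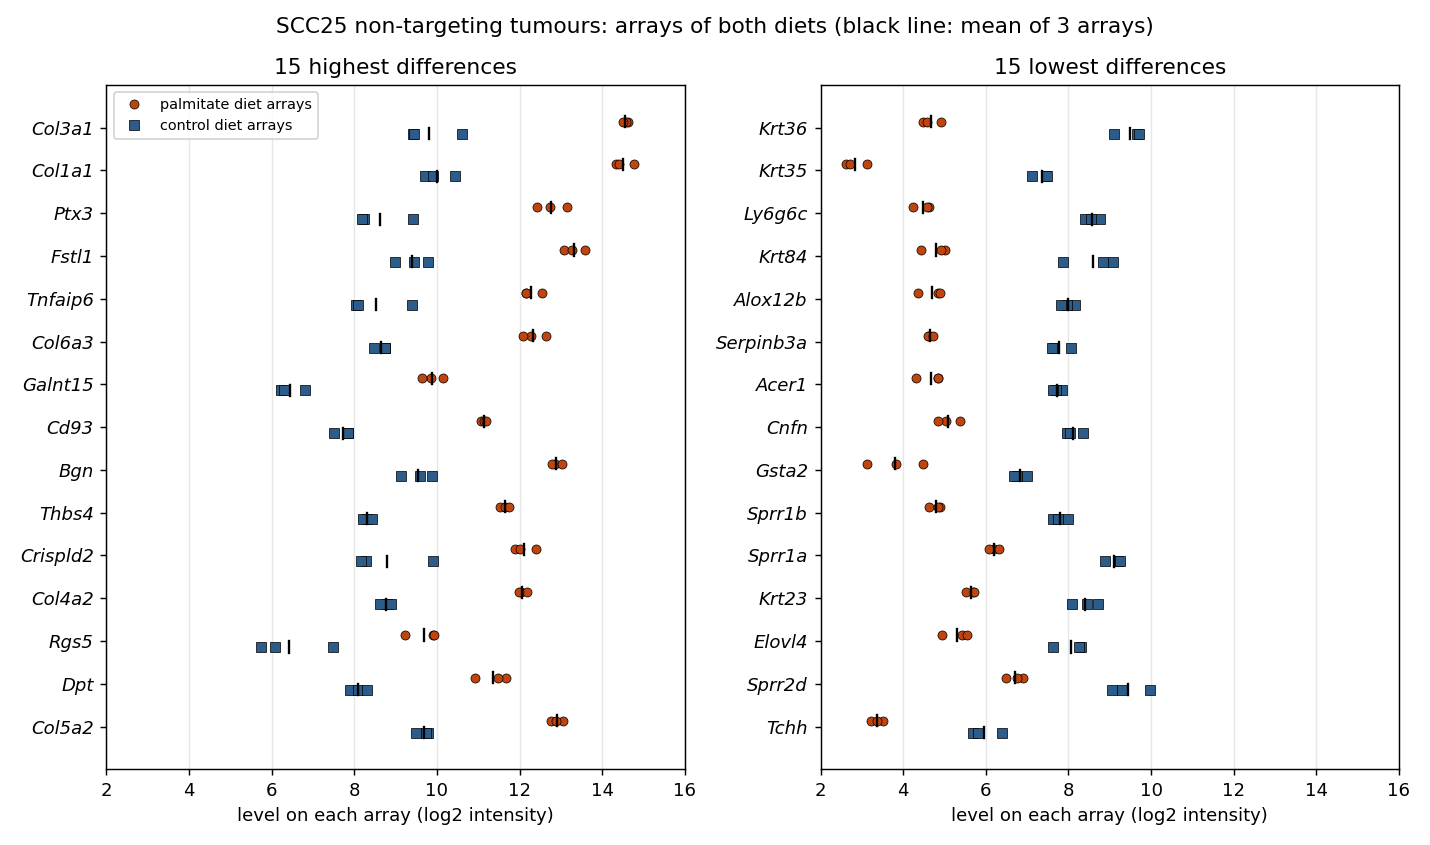
Log2 intensity on each array (horizontal axis) of the 15 genes with the highest and the 15 with the lowest difference; circles are palmitate arrays, squares below them control arrays, and black lines the mean of 3 arrays. The arrays of both diets do not overlap in any of the 30 genes, and control array 3 of Col3a1, Ptx3, Tnfaip6 and Crispld2 lies to the right of the other control arrays.

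At the lower end stood hard keratins, the keratins of hair, nail and the filiform papillae of the tongue. Krt36 (chromosome 11) had 4.93, 4.48 and 4.59 log2 on palmitate arrays, against 9.65, 9.10 and 9.72 log2 on control arrays. Krt35 had 3.14, 2.61 and 2.71 log2 on palmitate arrays, against 7.13, 7.45 and 7.48 log2 on control arrays. Krt84 had 5.02, 4.44 and 4.91 log2 on palmitate arrays, against 8.82, 7.88 and 9.08 log2 on control arrays. All 3 keratins were low on every palmitate array, and their differences were -4.83 ± 0.23, -4.53 ± 0.19 and -3.81 ± 0.28 log2 (limma adjusted p = 1.7e-09, 5.4e-10 and 1.5e-07). Krt36 was 28.4-fold lower on palmitate. When the arrays were quantile normalized again, the difference of Krt35 was only -3.03 log2, while those of Krt36 and Krt84 were -4.60 and -3.64 log2. Mean palmitate levels of 11 of the 15 lowest genes lay under 5.19 log2, the level under which genes were left out, whereas no mean control level did, so the fold of these genes is measured against values near the bottom of the range.

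Ly6g6c, a Ly6 family membrane protein, had 4.64, 4.24 and 4.58 log2 on palmitate arrays, against 8.77, 8.40 and 8.55 log2 on control arrays, a difference of -4.09 ± 0.14 log2 (limma adjusted p = 9.5e-11). Alox12b, a lipoxygenase needed to build the skin lipid barrier, had 4.36, 4.83 and 4.88 log2 on palmitate arrays, against 8.16, 7.96 and 7.82 log2 on control arrays. Acer1, a ceramidase of the epidermis, had 4.31, 4.84 and 4.83 log2 on palmitate arrays, against 7.83, 7.70 and 7.62 log2 on control arrays. Arrays within a diet were tight for these genes, and no palmitate value came within 2 log2 of a control value. Elovl4, which makes very long chain fatty acids, was lower by a difference of -2.75 log2. Of the cornified envelope proteins, Cnfn (-3.04), Sprr1b (-3.00), Sprr1a (-2.91) and Sprr2d (-2.72) were among the 15 lowest, as were Serpinb3a (-3.12), a protease inhibitor of squamous epithelium, Krt23 (-2.76), and Gsta2 (-3.01), a glutathione transferase. Tchh, the trichohyalin of the hair follicle and the tongue papillae, had 3.22, 3.503 and 3.36 log2 on palmitate arrays, against 6.38, 5.70 and 5.82 log2 on control arrays. Its difference of -2.60 log2 became -1.45 log2 when the arrays were quantile normalized again. The probe sets of Serpinb3a and Gsta2 carry suffixes for sequence shared with related genes, and Sprr and keratin genes belong to families of similar sequence, so a share of their signal may be that of relatives.

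The promoters of 5 of these lowered genes and of Col3a1 are given because a short letter run, TATAA, occurred in the windows of 10 of the 14 lowest genes that have one (71.4%) and of 2 of the 12 highest (16.7%). RefSeq windows (build GRCm38.p6) of 250 bases before to 50 bases after the gene's start were searched for TATAA on both strands (TATAA or TTATA, which overlap where TTATAA occurs). Capitals mark the matches, and each sequence runs 5′ to 3′ on the gene's strand.
Krt36 (chr11:100105577-100105876, minus strand): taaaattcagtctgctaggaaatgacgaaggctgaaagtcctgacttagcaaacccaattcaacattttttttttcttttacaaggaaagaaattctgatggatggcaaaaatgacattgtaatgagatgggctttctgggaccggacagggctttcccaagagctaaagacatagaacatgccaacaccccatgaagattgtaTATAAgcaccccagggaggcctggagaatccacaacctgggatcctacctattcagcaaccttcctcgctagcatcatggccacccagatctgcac
Ly6g6c (chr17:35067075-35067374, plus strand): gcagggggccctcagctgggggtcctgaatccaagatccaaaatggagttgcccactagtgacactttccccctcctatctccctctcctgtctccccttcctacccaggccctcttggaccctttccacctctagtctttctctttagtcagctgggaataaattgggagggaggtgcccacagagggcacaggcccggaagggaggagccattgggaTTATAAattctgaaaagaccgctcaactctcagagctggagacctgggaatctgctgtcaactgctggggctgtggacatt
Cnfn (chr7:25369675-25369974, minus strand): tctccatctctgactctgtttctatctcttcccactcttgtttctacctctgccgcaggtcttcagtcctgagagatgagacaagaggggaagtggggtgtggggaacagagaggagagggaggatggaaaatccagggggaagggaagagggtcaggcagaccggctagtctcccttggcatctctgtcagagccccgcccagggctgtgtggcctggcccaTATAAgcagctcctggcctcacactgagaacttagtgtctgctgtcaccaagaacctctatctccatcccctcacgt
Sprr1b (chr3:92438730-92439029, minus strand): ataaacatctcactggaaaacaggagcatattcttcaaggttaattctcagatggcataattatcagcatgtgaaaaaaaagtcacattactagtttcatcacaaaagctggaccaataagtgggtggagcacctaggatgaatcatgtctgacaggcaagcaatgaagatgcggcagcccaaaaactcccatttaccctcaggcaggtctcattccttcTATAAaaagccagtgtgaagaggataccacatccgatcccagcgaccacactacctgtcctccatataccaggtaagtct
Sprr2d (chr3:92338890-92339189, plus strand): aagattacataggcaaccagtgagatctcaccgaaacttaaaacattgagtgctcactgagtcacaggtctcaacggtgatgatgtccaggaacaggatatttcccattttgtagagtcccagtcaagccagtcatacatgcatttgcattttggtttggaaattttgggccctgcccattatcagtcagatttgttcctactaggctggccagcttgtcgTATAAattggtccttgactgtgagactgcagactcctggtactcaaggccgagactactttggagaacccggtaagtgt
Col3a1 (chr1:45311288-45311587, plus strand): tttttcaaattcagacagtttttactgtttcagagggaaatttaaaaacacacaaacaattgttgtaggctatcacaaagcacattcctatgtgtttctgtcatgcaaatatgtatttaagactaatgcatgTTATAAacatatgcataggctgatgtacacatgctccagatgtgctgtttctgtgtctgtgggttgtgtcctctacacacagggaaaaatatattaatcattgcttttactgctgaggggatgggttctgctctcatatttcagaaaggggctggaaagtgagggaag
In Ly6g6c, Cnfn, Sprr1b and Sprr2d the run starts 30, 27, 30 and 29 bases before the gene's start, and in Krt36 it starts 46 bases before it. In Col3a1 it starts 117 bases before. These sequences were chosen after their values were seen.

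A window was found for 81 of the 113 genes that fell by at least 1 log2, for 240 of the 343 that rose as much and for 10269 of the 12823 genes tested. The run was present in 42 of the 81 (51.9%), in 64 of the 240 (26.7%) and in 1830 of the 10269 (17.8%). On the gene's strand and 20 to 40 bases before the start, where a TATA box sits when a gene has one, it was present in 16 of the 81 (19.8%), 12 of the 240 (5%) and 358 of the 10269 (3.49%). At that place it was present in only 4 of the 14 lowest genes with a window (28.6%) and in 0 of the 12 highest. Those 4 are Ly6g6c, Cnfn, Sprr1b and Sprr2d, so all of them are among the sequences shown, which are not typical of the lowest genes in this respect. Genes with several windows counted once if any window matched, which favours genes with more windows: 9 of the 81, 57 of the 240 and 2050 of the 10269 had several. A match is only a match of letters.

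Collagens give connective tissue its tensile strength, and fibroblasts are their main source. Of 16 fibrillar and network collagens tested (4 more were in the lowest 25%), 14 rose and none fell, 10 of them by at least 1 log2, against 9.94% of all genes that rose. Their median difference was 1.92 log2, against -0.03 log2 over all genes. Besides Col3a1, Col1a1, Col6a3 and Col5a2 this held for Col15a1, a collagen of vessel and nerve basement membranes, at 11.07, 11.39 and 11.40 log2 on the palmitate diet and 9.28, 8.42 and 8.92 log2 on the control diet.

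Of 17 enzymes and chaperones that fold, modify and cross-link collagen, 12 rose and none fell, with a median of 0.46 log2. Lox, the lysyl oxidase that cross-links collagen and elastin, had 11.79, 12.53 and 12.09 log2 on palmitate arrays, against 9.03, 8.89 and 8.95 log2 on control arrays, a difference of 3.18 ± 0.26 log2 (limma adjusted p = 3.4e-07), or 1.68 log2 averaged over its probe sets. Loxl1 differed by 1.95 ± 0.11 log2, Plod1, a lysyl hydroxylase, by 0.97 ± 0.08 log2, and the collagen chaperone Serpinh1 by 0.77 ± 0.08 log2. Of 18 proteoglycans tested, 9 rose and 2 fell (median 0.17 log2, or 0.53 log2 with a stricter filter on low genes and fewer members). Lum, the proteoglycan lumican, had 9.59, 9.93 and 9.01 log2 on palmitate arrays, against 6.63, 6.51 and 6.56 log2 on control arrays. Prelp differed by 1.82 log2 and Hspg2, the basement membrane proteoglycan perlecan, by 1.02 log2.

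Of 16 matricellular proteins, which signal from the matrix to cells, 13 rose and none fell (median 0.98 log2). Fn1, fibronectin, had 11.58, 11.75 and 11.58 log2 on palmitate arrays, against 9.02, 8.85 and 8.27 log2 on control arrays. Sparcl1 differed by 2.68 ± 0.13 log2 and Thbs2 by 2.25 ± 0.15 log2. Elastic fibre genes gave 9 that rose and none that fell of 14 (median 0.39 log2), with Mfap5 at 2.73, Eln, elastin itself, at 1.54, Emilin2 at 1.14 and Fbln5 at 1.09 log2. In the list of basement membrane and hemidesmosome genes 7 of 18 rose and none fell, with a median of 0.05 log2. Col4a1 (2.67), Col4a2 (3.30), Nid1 (2.18) and Lamc1 (0.76 log2), components of vascular and general basement membranes, had the smallest p-values in it.

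Of 22 matrix proteases 11 rose and 1 fell (54.5%, against 19.1% of all genes that passed, median 0.44 log2). Adamts4, an aggrecanase, had 11.64, 11.97 and 11.80 log2 on palmitate arrays, against 8.56, 8.47 and 9.36 log2 on control arrays. Plat, tissue plasminogen activator, differed by 2.41 ± 0.12 log2, Adam12 by 2.46 ± 0.13 log2 and Ctsk, the collagen-degrading cathepsin K, by 1.90 ± 0.15 log2. Among 12 protease inhibitors 4 rose and 5 fell (75%). Timp1 (2.37 log2) and Timp3 (2.10 log2), inhibitors of matrix metalloproteinases, rose, while Serpinb3a and Spink5 (-2.15 log2), inhibitors made by squamous epithelium, fell.

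The fibroblast list held 18 tested genes, of which 14 rose and none fell, 7 by at least 1 log2 (median 0.88 log2). Its mean level per array was 9.002 to 9.22 log2 on palmitate and 7.93 to 8.13 log2 on control. Serpinf1 differed by 2.50 ± 0.16 log2, and Fap, fibroblast activation protein, had 8.55, 8.68 and 8.01 log2 on palmitate arrays, against 7.06, 6.82 and 6.99 log2 on control arrays. In bulk RNA more cells of a type and more RNA per cell cannot be told apart, here and in every list below. Of 18 mesenchymal transcription factors 11 rose and none fell (median 0.46 log2, or 0.84 log2 with a stricter filter on low genes and fewer members). Zeb1 had 10.50, 10.80 and 10.36 log2 on palmitate arrays, against 7.71, 7.37 and 7.63 log2 on control arrays. Prrx1 differed by 1.99 ± 0.17 log2, Ets1 by 2.13 ± 0.17 log2 and Tcf4 by 0.97 ± 0.08 log2.

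All 23 endothelial genes tested rose (1 more was in the lowest 25%), 19 of them by at least 1 log2, with a median of 2.08 log2 and a range of 0.36 to 3.15 log2. The mean level of the list, the gene in the lowest 25% included, was 9.64 to 9.72 log2 on palmitate arrays and 7.89 to 7.91 log2 on control arrays. Robo4, a guidance receptor of vessels, had 10.35, 10.40 and 10.36 log2 on palmitate arrays, against 7.14, 7.17 and 7.34 log2 on control arrays, a difference of 3.15 ± 0.11 log2 (limma adjusted p = 9.5e-11). Cdh5, the cadherin of endothelial junctions, had 12.28, 12.22 and 12.19 log2 on palmitate arrays, against 9.43, 9.56 and 9.58 log2 on control arrays. The arrays of each diet lay close together for both genes. Pecam1, another junction protein, differed by 2.62 ± 0.13 log2 and Ecscr, a surface protein of endothelium, by 2.24 ± 0.11 log2. The endothelial list mean and the fibroblast list mean were thus both higher on every palmitate array, and their part in the matrix differences was not tested. Pericytes and smooth muscle surround vessels, and of 13 such genes 7 rose and 2 fell (69.2%, against 19.1% of all genes that passed, median 0.47 log2). Myh11, the smooth muscle myosin, had 11.41, 11.85 and 11.50 log2 on palmitate arrays, against 7.82, 8.45 and 9.18 log2 on control arrays, Myl9 differed by 2.25 ± 0.12 log2, and Acta2, smooth muscle actin, by 1.22 ± 0.11 log2.

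**Figure D2:**
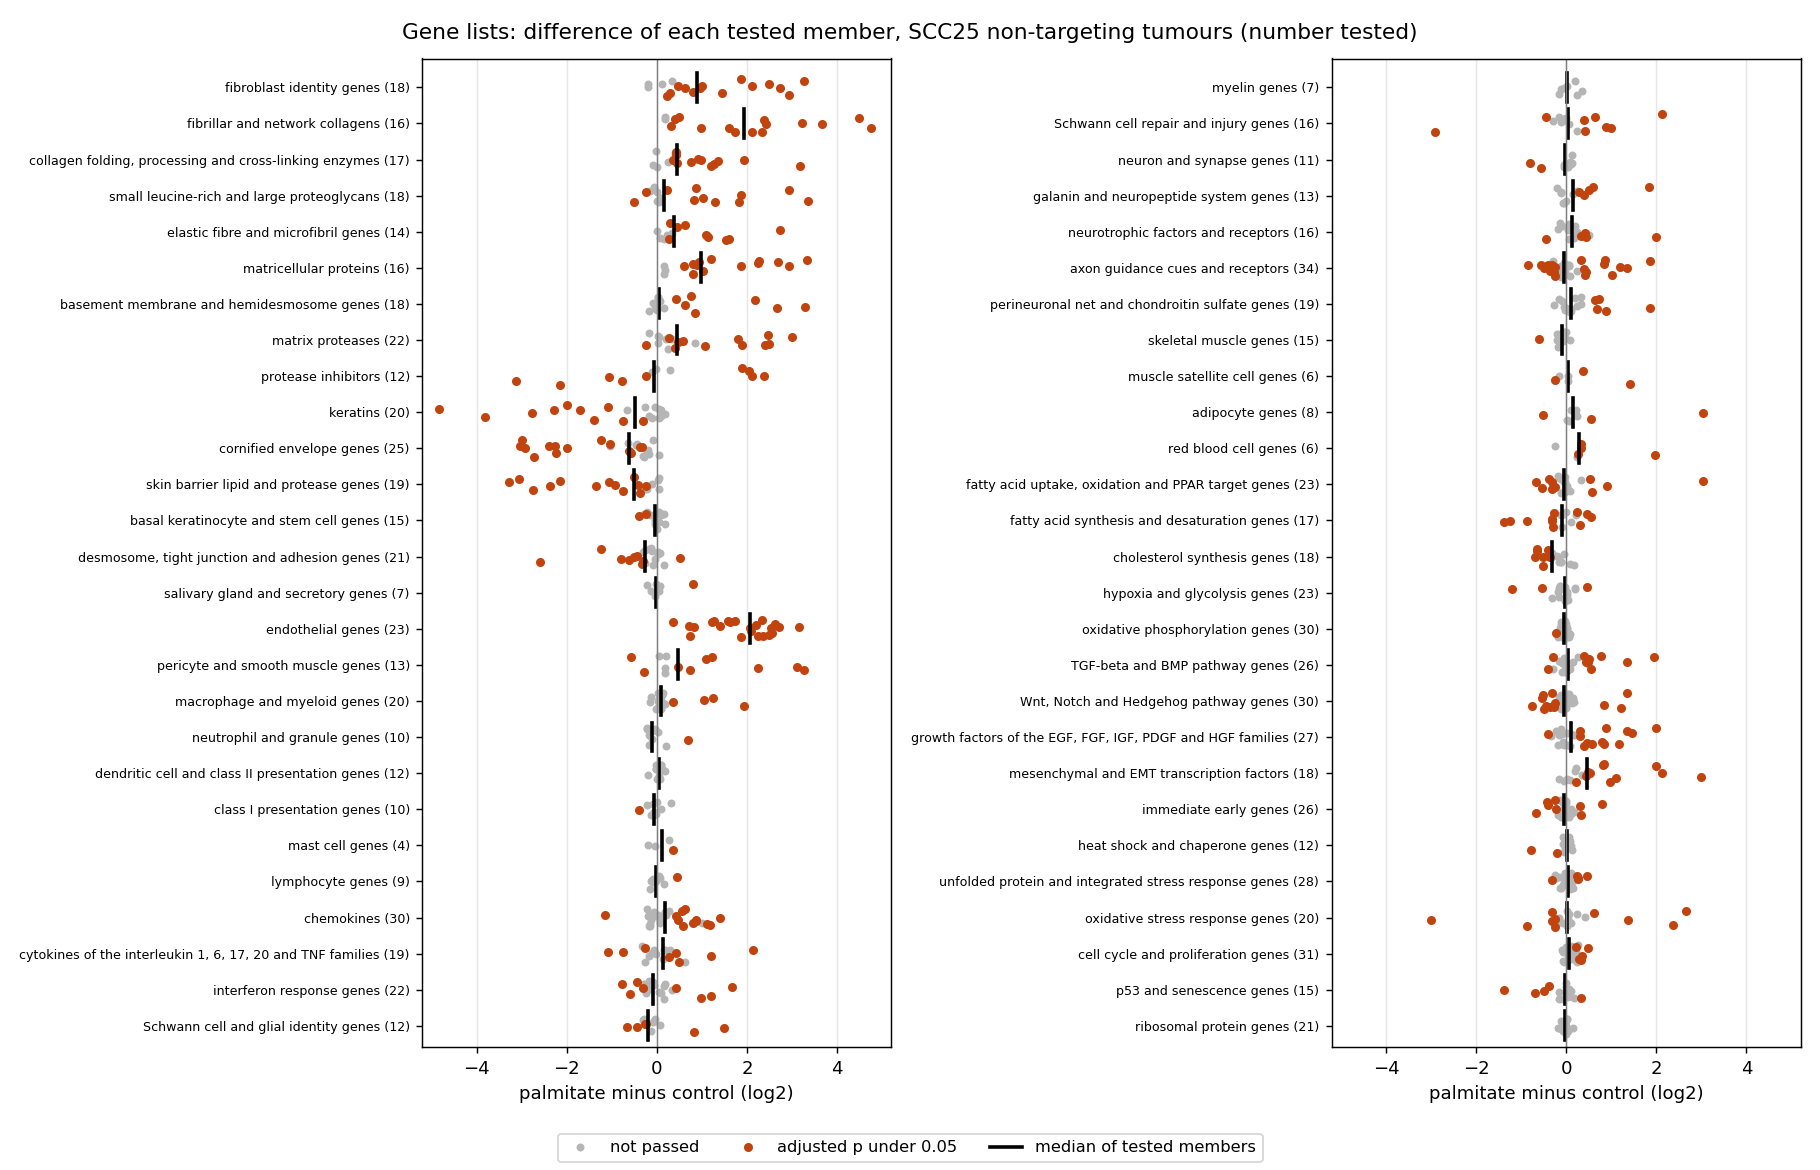
Palmitate minus control difference in log2 (horizontal axis) of every tested member of the 54 gene lists, with the number tested in parentheses; orange points passed the limma threshold, grey points did not, and black lines are medians. Endothelial genes and collagens have the highest medians (2.08 and 1.92 log2), and cornified envelope, barrier and keratin genes the lowest (-0.61, -0.50 and -0.48 log2).

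Epithelial genes were read by layer, from the cornified surface to the basal cells. Of 20 keratins 10 fell and none rose (median -0.48 log2), against 9.2% of all genes that fell. Krt4, a keratin of non-cornified oral epithelium, was at 8.97, 9.39 and 9.35 log2 on the palmitate diet and 10.99, 10.90 and 10.90 log2 on the control diet. Its partner Krt13 was at 10.40, 10.70 and 10.54 log2 on the palmitate diet and 11.69, 11.63 and 11.59 log2 on the control diet. Every palmitate array of both keratins lay below every control array. Of 25 cornified envelope genes 14 fell and none rose (median -0.61 log2). Tgm3, the transglutaminase that cross-links the envelope, had 7.02, 6.95 and 7.08 log2 on palmitate arrays, against 9.36, 9.24 and 9.25 log2 on control arrays. Of 19 barrier lipid and protease genes 13 fell and none rose (median -0.50 log2), among them Abca12, the lipid transporter of the barrier (-2.37 log2). With a stricter filter on low genes the medians of the keratins and of the cornified envelope list were -0.92 and -1.62 log2, with fewer members left in each.

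Of 15 basal keratinocyte and stem cell genes tested, 2 fell and none rose (13.3%, against 19.1% of all genes that passed). Their median was -0.04 log2, with a list mean of 9.92 to 9.93 log2 on palmitate and 9.97 to 10.004 log2 on control arrays. The 2 that fell were Dlx3 (-0.39 ± 0.10 log2) and Pax9 (-0.23 ± 0.07 log2), and both lost the call when single arrays were left out. Of 21 desmosome, tight junction and adhesion genes 8 fell and 1 rose. Dsc1, a desmosomal cadherin of upper layers, differed by -2.59 ± 0.18 log2, Cldn4, a tight junction claudin, by -1.23 ± 0.07 log2, Gjb2, a gap junction protein, by -0.79 ± 0.08 log2 and Jup, plakoglobin, by -0.51 ± 0.07 log2. Probe sets of epithelial genes thus give signal in the fraction labelled neural on both diets. Their part in the other differences, and any part of human RNA in their signal, were not tested.

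The label neural was set against nerve genes. Of 18 Schwann cell and glial identity genes on the array, 6 lay in the lowest 25% of genes by mean level, among them S100b, Gfap and Foxd3, and of 21 neuron and synapse genes 10 did, among them Snap25, Nefl and Nefm. Of 13 myelin genes 6 did, Mag among them. The other 12 glial genes passed the filter, among them Sox10, the transcription factor of the Schwann lineage, with mean levels of 6.77 log2 on palmitate and 6.86 log2 on control. Ngfr, the p75 neurotrophin receptor, had means of 7.77 log2 on palmitate and 7.71 log2 on control, and neither gene passed the test. Erbb3, the neuregulin receptor, fell, with means of 8.76 log2 on palmitate and 9.01 log2 on control, and so did Egr2, a regulator of myelination, with 10.72 log2 on palmitate and 10.97 log2 on control. These 4 genes were chosen after their values were seen. Of the 12 glial genes tested 2 rose and 4 fell (50%, against 19.1% of all genes that passed), with a median of -0.19 log2. Scn7a, a sodium channel of non-myelinating Schwann cells, had 8.47, 9.16 and 8.95 log2 on palmitate arrays, against 7.14, 7.41 and 7.55 log2 on control arrays. Ncam1, a neural adhesion molecule, differed by 0.83 ± 0.15 log2 (limma adjusted p = 0.00075), L1cam, its relative, by -0.65 ± 0.09 log2 and Artn, the neurotrophic factor artemin, by -0.44 ± 0.08 log2. The 3 palmitate arrays of Scn7a lay above all control arrays, and those of L1cam below. As the mean of all probe sets of a gene, the differences of Scn7a and Ncam1 were 0.56 and 0.23 log2. None of 7 myelin genes passed the test (median 0.01 log2).

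Schwann cell repair and injury genes gave 6 that rose and 2 that fell of 16 tested (50%, against 19.1% of all genes that passed, median 0.03 log2). The 8 that did not pass were Jun (-0.001), Atf3 (-0.02), Sox2 (-0.29), Ngfr (0.06), Shh (-0.16), Gdnf (0.23), Btc (-0.12) and Gal (-0.07 log2). Gap43, a growth-cone protein that repair Schwann cells also make, had 10.13, 10.24 and 10.25 log2 on palmitate arrays, against 9.11, 9.19 and 9.30 log2 on control arrays. Il6, a cytokine of the injury response, had 9.75, 10.26 and 9.57 log2 on palmitate arrays, against 7.60, 7.89 and 7.67 log2 on control arrays. Tnc, the matrix protein tenascin C, differed by 0.88 ± 0.07 log2, while Sprr1a, which injured sensory neurons and keratinocytes both express, fell. Of 11 neuron genes tested, 2 fell and none rose, which is 18.2% and close to the 19.1% of all genes that passed. The 2 were Tubb3, a neuronal tubulin (-0.81 ± 0.13 log2), and Map2, a dendritic microtubule protein (-0.55 ± 0.09 log2).

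Galanin is a neuropeptide that nerve cells release. Gal had 6.08, 6.01 and 6.27 log2 on palmitate arrays, against 6.23, 5.99 and 6.33 log2 on control arrays, and its arrays of both diets overlapped, with a difference of -0.07 ± 0.13 log2 (limma adjusted p = 0.81). The receptors Galr1 (-0.19 ± 0.08 log2) and Galr3 (-0.11 ± 0.08 log2) did not pass the test, and Galr2 was in the lowest 25% of genes. Of 13 galanin and neuropeptide system genes 5 rose and none fell (38.5%, against 19.1% of all genes that passed). Calcrl, a receptor for CGRP and adrenomedullin that endothelial cells also carry, had 7.36, 7.89 and 7.71 log2 on palmitate arrays, against 5.65, 5.90 and 5.91 log2 on control arrays, and Ramp3, its partner protein, differed by 0.59 ± 0.11 log2. Among 16 neurotrophic factors and receptors 4 rose and 1 fell (31.2%, against 19.1% of all genes that passed). Igf1 was the highest, at 10.22, 10.94 and 10.22 log2 on the palmitate diet and 8.50, 8.07 and 8.86 log2 on the control diet. Axon guidance genes were split evenly, 10 higher and 10 lower of 34 (58.8% passed, median -0.06 log2). Nrp1, a receptor for semaphorins and VEGF, differed by 1.87 ± 0.17 log2, the netrins Ntn1 by 1.35 ± 0.13 and Ntn4 by 1.20 ± 0.11 log2, and the plexin Plxnd1 by 1.02 ± 0.11 log2. Of 19 perineuronal net and chondroitin sulfate genes 5 rose and none fell (26.3%). Vcan, the proteoglycan versican, was at 9.04, 9.995 and 9.49 log2 on the palmitate diet and 7.90, 7.27 and 7.77 log2 on the control diet.

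Of 20 macrophage and myeloid genes 4 rose and none fell, which is 20% and close to the 19.1% of all genes that passed. The list median was 0.09 log2. A stricter filter on low genes left fewer members, and their median was the 1.06 log2 of Lyz2. Mrc1, the mannose receptor, had 8.76, 8.57 and 8.69 log2 on palmitate arrays, against 6.64, 7.15 and 6.44 log2 on control arrays. Cd14 differed by 1.24 ± 0.12 log2, Lyz2 by 1.06 ± 0.20 log2 and Tyrobp, a signalling adaptor, by 0.37 ± 0.09 log2, the last of which lost its call when single arrays were left out. The filter on low genes left out 4 more genes of this list, which were not tested. Mean levels on palmitate and control were 4.78 and 4.83 log2 for Adgre1 and 3.89 and 3.78 log2 for Cd163. For Itgam they were 4.31 and 4.37 log2, and for Ptprc 4.34 and 4.34 log2. Of 10 neutrophil genes 1 rose (10%), Lcn2 (0.70 log2). None of 12 dendritic cell and class II genes passed, and of 10 class I genes 1 fell (10%), Nlrc5 (-0.40 log2). Of 9 lymphocyte genes 1 rose (11.1%), Cd3e (0.45 log2), and it lost its call when single arrays were left out. Of 4 mast cell genes 1 rose (25%), Gata2 (0.37 log2), which endothelial cells express too.

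Secreted signals were mixed. Of all genes 19.1% passed, against 40% of the chemokines, 42.1% of the cytokines and 36.4% of the interferon response genes below. For the growth factors the share was 48.1%, for the TGF-beta and BMP genes 38.5%, and for the Wnt, Notch and Hedgehog genes 40%. Of 30 chemokines 11 rose and 1 fell. Ccl27a (1.39), Ccl7 (1.18) and Ccl8 (0.88 log2) rose, and Ccl20, a chemokine made by epithelium, fell (-1.15 log2). Of 19 cytokines 5 rose and 3 fell. Csf1, the macrophage growth factor, differed by 1.21 ± 0.16 log2, and the epithelial alarmin Il33 had 7.68, 7.52 and 7.75 log2 on palmitate arrays, against 8.86, 8.45 and 8.92 log2 on control arrays. Of 22 interferon response genes 4 rose and 4 fell, with Ifit2 (1.67) and Rsad2 (1.20) higher and Oas3 (-0.77) and Oasl2 (-0.59 log2) lower, so the list did not move as a whole. Of 27 growth factors and their binding proteins 12 rose and 1 fell, among them Angpt2, a vessel-remodelling factor (1.46), Fgf7 (1.35) and Igfbp4 (0.80 log2). Of 26 TGF-beta and BMP genes 8 rose and 2 fell (median 0.05 log2). Tgfb3 had 9.04, 9.54 and 9.10 log2 on palmitate arrays, against 7.20, 7.14 and 7.47 log2 on control arrays, and Tgfb1 differed by 0.78 ± 0.10 log2, Tgfbr2, the type II receptor, by 0.49 ± 0.07 log2 and Fst, follistatin, by 0.55 ± 0.08 log2. Of 30 Wnt, Notch and Hedgehog genes 3 rose and 9 fell, with Heyl (1.23) and Sfrp2 (1.35) higher and Fzd7 (-0.76) and Wnt7b (-0.54 log2) lower.

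Lipid genes bear on the diet itself. Of 23 genes of fatty acid uptake, oxidation and PPAR targets 4 rose and 6 fell (median -0.04 log2), and of 17 fatty acid synthesis genes 4 rose and 7 fell (median -0.09 log2). The shares that passed were 43.5% and 64.7%, against 19.1% of all genes. Mouse Cd36 had 5.73, 5.70 and 5.46 log2 on palmitate arrays, against 5.29, 4.99 and 5.06 log2 on control arrays, a difference of 0.52 ± 0.10 log2 (limma adjusted p = 0.0015), with every palmitate array above every control array and the mean control level under the 5.19 log2 of the filter. Fabp4, a fatty acid binding protein of adipocytes and capillary endothelium, had 12.16, 12.37 and 11.86 log2 on palmitate arrays, against 9.08, 9.12 and 9.08 log2 on control arrays, a difference of 3.03 ± 0.12 log2 (limma adjusted p = 2.8e-10), or 1.99 log2 averaged over its probe sets. Angptl4, a lipase inhibitor induced by fatty acids, differed by 0.91 ± 0.10 log2, while the epidermal binding protein Fabp5 differed by -0.53 ± 0.06 log2 and the transporter Slc27a4 by -0.67 ± 0.09 log2. In the synthesis list Me1, malic enzyme, had 7.03, 7.01 and 6.99 log2 on palmitate arrays, against 8.54, 8.43 and 8.22 log2 on control arrays. Dgat2, which makes triglycerides, differed by -1.24 ± 0.09 log2 and Acss2, which makes acetyl-CoA from acetate, by -0.88 ± 0.10 log2, while the desaturase Fads1 differed by 0.46 ± 0.09 log2.

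Cholesterol synthesis genes fell in part: 8 of 18 fell and none rose (44.4%, against 19.1% of all genes that passed). Their median was -0.31 log2, with no difference as large as 1 log2. Fdft1, squalene synthase, had 7.22, 7.28 and 7.22 log2 on palmitate arrays, against 7.97, 7.86 and 7.96 log2 on control arrays, with -0.65 ± 0.08 log2 for Fdps, -0.64 ± 0.09 log2 for Sqle and -0.38 ± 0.08 log2 for Mvk. Of 8 adipocyte genes 2 rose, Fabp4 and Lpl (0.55 log2), and 1 fell, Cebpa (-0.50 log2), and the red blood cell list had 4 higher and none lower of 6. The shares that passed were 37.5% and 66.7%. Alas2, the heme enzyme of red cell precursors, had 11.44, 11.66 and 11.49 log2 on palmitate arrays, against 9.55, 9.87 and 9.27 log2 on control arrays. Hba-a1, a haemoglobin gene, differed by 0.26 ± 0.07 log2, lost its call without control array 3, and turned to -0.43 log2 when the arrays were quantile normalized again.

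Housekeeping and stress lists are read against the 19.1% of all genes that passed. None of 21 ribosomal protein genes passed (median -0.02 log2), and of 30 oxidative phosphorylation genes 1 fell and none rose. Of 31 cell cycle genes 5 rose, none by 1 log2, with Mcm6 at 0.49 and Tyms at 0.32 log2. Tyms lost its call when its probe sets were averaged (0.12 log2, limma adjusted p = 0.15). Of 23 hypoxia and glycolysis genes 1 rose and 2 fell, Egln3, an oxygen sensor, the most (-1.21 ± 0.10 log2). Of 15 p53 and senescence genes 1 rose and 4 fell (33.3%), Cdkn2b, a cell cycle inhibitor, the most (-1.37 ± 0.14 log2). Immediate early genes, which respond to handling of tissue, gave 3 higher and 5 lower of 26 (30.8%), and heat shock genes 2 lower of 12, Hspa1b (-0.78 log2) and Hspb1 (-0.21 log2), of which Hspb1 lost its call when single arrays were left out. The unfolded protein response list had 4 higher and 1 lower of 28, none by 1 log2. Of 20 oxidative stress genes 4 rose and 6 fell (50%), with Sod3, the extracellular superoxide dismutase, at 10.91, 11.41 and 11.24 log2 on the palmitate diet and 8.41, 8.36 and 8.81 log2 on the control diet, and Aldh3a1, an aldehyde dehydrogenase of epithelium, at -0.86 log2. Of 15 skeletal muscle genes 1 fell (Ryr1, -0.60 log2), of 6 muscle satellite cell genes 2 rose and 1 fell, and of 7 salivary gland genes 1 rose (Kcnn4, 0.79 log2).

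The next question was whether the same diet gave the same difference when the SCC25 cells carried the shRNA against CD36. The palmitate difference in non-targeting tumours differed from that in shCD36 tumours at 1992 genes (15.5% of those tested, limma adjusted p under 0.05), above 0 at 895 (6.98%) and below 0 at 1097 (8.55%). In shCD36 tumours the median difference over all genes was 0.02 log2, and the share of all genes by sign was not counted. The 343 genes that rose by at least 1 log2 in non-targeting tumours had a median difference of 1.62 log2 there and of 0.13 log2 in shCD36 tumours, where 206 were higher and 10 of them by at least 1 log2 (2.92%, against 0.273% of all genes). The 113 that fell had medians of -1.46 and 0.05 log2, and 48 of them were lower in shCD36 tumours, 1 by at least 1 log2 (0.885%, against 0.234% of all genes). Because these genes were picked by the non-targeting difference, which is a term of the tested difference, how many of them passed is not independent of that choice and is not counted here.

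In the genes with the largest positive differences between the shRNAs, mean levels in shCD36 tumours were lower on palmitate than on control. Col3a1 had in shCD36 tumours 13.13, 12.03 and 11.16 log2 on palmitate arrays, against 13.40, 14.07 and 13.80 log2 on control arrays. The difference of the diet differences was 6.39 ± 0.54 log2 (limma adjusted p = 1.3e-06). Tnfaip6 had in shCD36 tumours 9.88, 9.30 and 7.86 log2 on palmitate arrays, against 10.98, 11.99 and 11.24 log2 on control arrays, a difference of differences of 6.15 ± 0.62 log2 (limma adjusted p = 6.5e-06). In both genes the control arrays of shCD36 tumours lay above the control arrays of non-targeting tumours, so the control levels were not alike between the shRNAs. The same order held for Dpt, with 8.52, 8.41 and 7.92 log2 on palmitate arrays, against 10.25, 10.26 and 10.13 log2 on control arrays in shCD36 tumours, and the differences of differences were 5.71 ± 0.59 log2 for Ptx3, 5.23 ± 0.64 log2 for Col1a1, 5.19 ± 0.25 log2 for Dpt and 5.15 ± 0.28 log2 for Thbs4. Palmitate arrays of shCD36 tumours spread widely for Col3a1, Col1a1 and Tnfaip6, with array 1 the highest in each.

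Among the largest negative ones, Krt36 had in shCD36 tumours 9.54, 9.43 and 9.29 log2 on palmitate arrays, against 8.37, 9.30 and 8.27 log2 on control arrays, a difference of differences of -5.60 ± 0.32 log2 (limma adjusted p = 3.3e-08). Ly6g6c had in shCD36 tumours 8.34, 8.75 and 8.32 log2 on palmitate arrays, against 8.57, 8.87 and 8.55 log2 on control arrays, so these 6 arrays lay with the control arrays of non-targeting tumours, and the difference of differences was -3.90 ± 0.20 log2 (limma adjusted p = 1.3e-08). For Krt35 and Krt84 it was -4.94 ± 0.26 and -4.44 ± 0.40 log2. Sprr2d and Sprr2a1, cornified envelope genes, were higher on palmitate in shCD36 tumours by 2.46 and 1.66 log2 and lower in non-targeting tumours, with differences of differences of -5.19 ± 0.29 and -3.66 ± 0.28 log2. By list, the shCD36 medians were -0.39 log2 for collagens, -0.37 log2 for fibroblast genes and 0.50 log2 for endothelial genes, against 0.02 log2 for all genes.

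**Figure D3:**
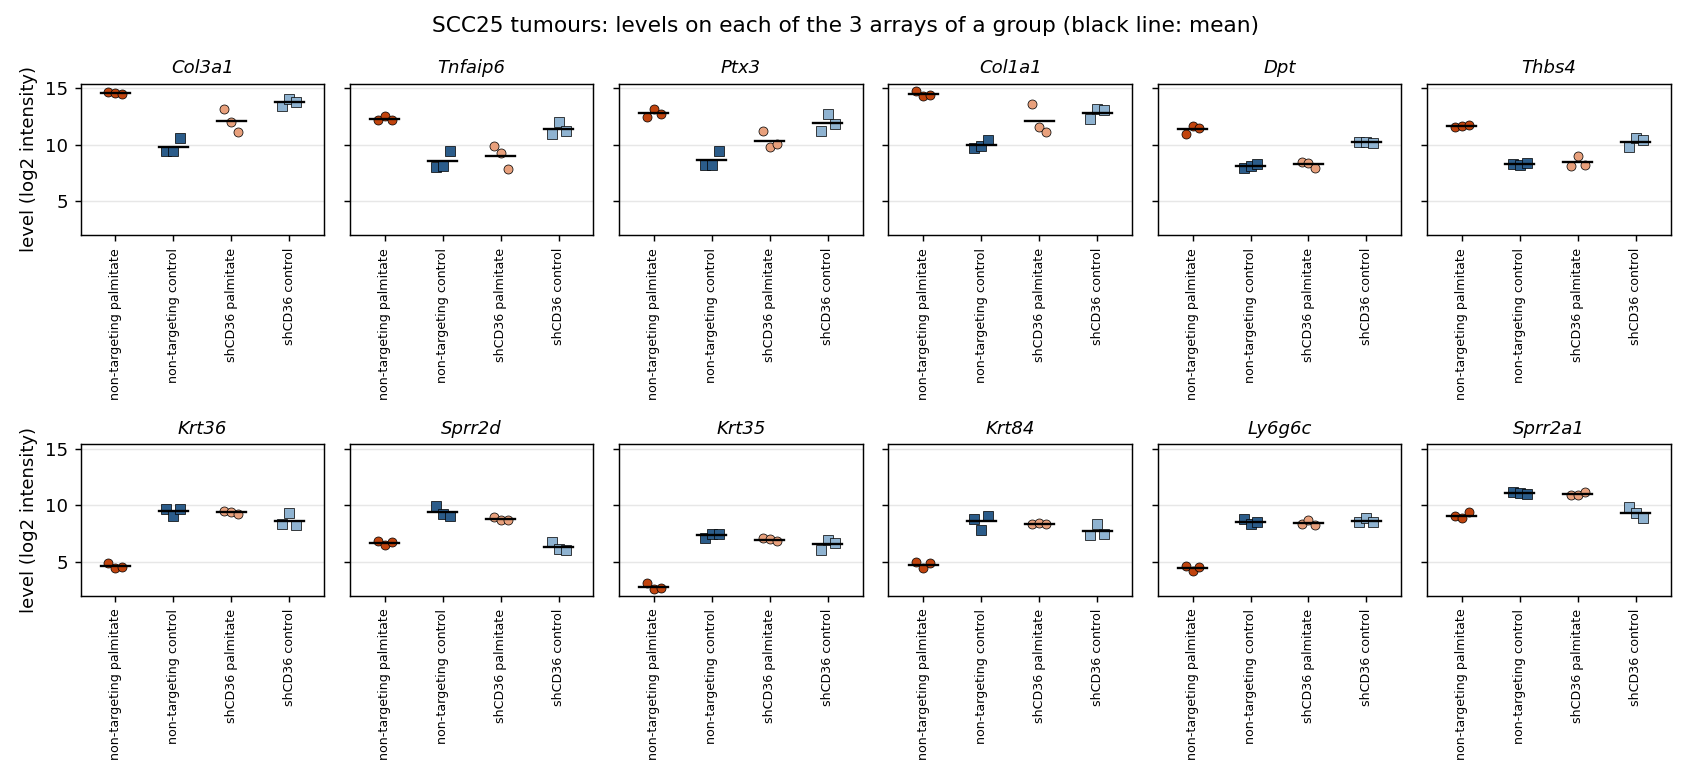
Log2 intensity (vertical axis) on each array of the 4 SCC25 groups, from left to right non-targeting palmitate, non-targeting control, shCD36 palmitate and shCD36 control, for the 12 genes whose palmitate difference differed most between the shRNAs; black lines are means of 3 arrays. In the upper row the non-targeting control arrays lie below the shCD36 control arrays, and in Krt36, Krt35, Krt84 and Ly6g6c only the non-targeting palmitate arrays are low.

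The other question was whether a second tumour cell source gave the same difference. Both VDH15 experiments are separate arrays, with their own controls, and their differences took no part in picking the genes. Of the 343 genes that rose by at least 1 log2 in SCC25, 322 (93.9%) were also higher in both VDH15 experiments, against 27.3% of all genes tested. In the first VDH15 experiment 259 of them were higher by at least 1 log2 (75.5%, against 4.98% of all genes) and in the second 78 (22.7%, against 0.866%), and 64 in both. Their median difference was 1.62 log2 in SCC25, 1.31 log2 in the first and 0.74 log2 in the second VDH15 experiment. Of the 113 genes that fell by at least 1 log2, 103 (91.2%) were lower in both VDH15 experiments, against 35.1% of all genes. By at least 1 log2, 58 were lower in the first (51.3%, against 2.99%) and 86 in the second (76.1%, against 1.11%), and 43 in both. Their medians were -1.46, -1.05 and -1.33 log2.

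Collagens had medians of 1.92 log2 in SCC25 and of 1.02 and 1.08 log2 in the VDH15 experiments, and endothelial genes of 2.08, 1.34 and 0.87 log2. The cornified envelope medians were -0.61, -0.40 and -0.70 log2 and the barrier medians -0.50, -1.15 and -0.83 log2. Col3a1, the highest gene in SCC25, differed by 0.34 and 1.54 log2 in the VDH15 experiments, and Krt36, the lowest, by -2.04 and -1.40 log2. Rgs5 was the only gene of the 15 highest that turned sign, at -0.88 log2 in the first VDH15 experiment. Pericyte and smooth muscle genes, with a median of 0.47 log2 in SCC25, had medians of 0.06 and 0.00 log2 in VDH15. The macrophage list had a median of 0.09 log2 in SCC25 and of 0.52 and 0.28 log2 in VDH15.

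A limma fit took 11 averages of the labelled biological replicates, with terms for experiment, for condition and for SCC25 non-targeting tumours on palmitate. Averages of shCD36 tumours of both cell sources were among them and help set the SCC25 level. The tested term is therefore not the plain diet difference in SCC25 minus that in VDH15. No gene passed a limma adjusted p of 0.05 for this term (smallest 0.438), and 542 genes (4.23%) had an unadjusted p under 0.05. This fit had 3 residual degrees of freedom and limits what could pass, so it does not show that the differences are alike. With only the 6 averages of non-targeting tumours, no gene passed either. In the fit to 11 averages the 3 smallest p-values in each direction, predicted genes passed over, were those of Ly6g6c, Pdk4, Hopx, Hp, Gsta2 and Nrep. The values that follow are plain diet differences. Pdk4, a kinase that spares glucose when fatty acids are burned, was higher in SCC25 by 0.57 ± 0.14 log2 but had differences of -1.77 and -2.27 log2 in VDH15. Hp, haptoglobin, had 0.17 log2 in SCC25, which did not pass, and 1.79 and 1.85 log2 in VDH15. Ly6g6c had -4.09 log2 in SCC25 and -2.43 and -2.05 log2 in VDH15.

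**Figure D4:**
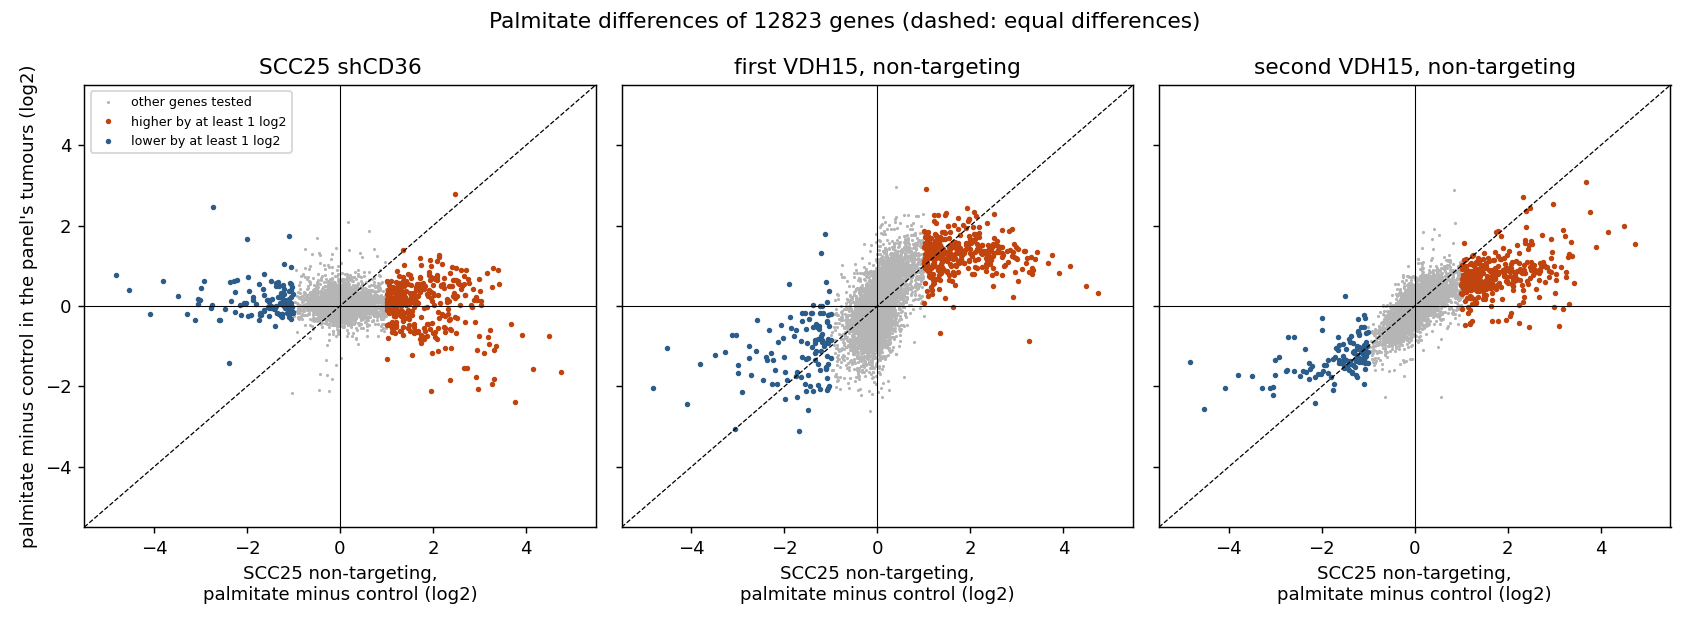
Palmitate minus control difference in log2 of the 12823 genes in SCC25 non-targeting tumours (horizontal axis) against the same difference in SCC25 shCD36 tumours and in both VDH15 experiments (vertical axes); orange and blue points are the 343 and 113 genes that differed by at least 1 log2, grey points all others, and the dashed line marks equal differences. Orange points lie mostly above 0 and blue points below 0 in both VDH15 panels, while in the shCD36 panel they lie around 0 (medians 0.13 and 0.05 log2).

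Many genes have more than 1 probe set, which gives a check within the arrays. Of the 169 genes that rose by at least 1 log2 and had other probe sets, all of these had the same sign in 162 and some had the opposite sign in 7. Of 25 such genes that fell, the same sign was found in all 25. Over the 4923 tested genes with other probe sets, 66.3% had the same sign in all. Sizes were less alike. Of 184 named genes past the test, averaging the probe sets moved 39 by over 1.5 times, 38 of them nearer to 0. Genes with only 1 probe set, whose values cannot move, were not left out of the 184. Beside those given above, the averages were 1.89 log2 for Zeb1, 1.77 log2 for Sod3, 1.71 log2 for Myh11, 1.47 log2 for Thbs2, 1.28 log2 for Loxl1, 1.19 log2 for Prrx1, 1.16 log2 for Ets1 and 1.13 log2 for Calcrl. They were 0.93 log2 for Igf1, 0.85 log2 for Angpt2, 0.72 log2 for Vcan, 0.69 log2 for Csf1, 0.62 log2 for Ntn1, 0.55 log2 for Plod1 and for Fbln5, and 0.53 log2 for Heyl and for Ccl27a. Smaller ones were 0.50 log2 for Angptl4, 0.31 log2 for Lpl, 0.27 log2 for Fads1 and 0.26 log2 for Tgfbr2. Among the lower genes they were -0.85 log2 for Fabp5, -0.45 log2 for Hspa1b, -0.37 log2 for Ryr1 and -0.23 log2 for Dlx3.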

How the data were processed

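Mouse Affymetrix arrays of stromal neural fractions were read as the authors' deposited log2 intensities, for which the submitters' processing notes name RMA and affy. A refit of the deposited values gave 0 for every coefficient of hybridisation batch, scan batch and cell line when diet and shRNA were in the model (under 1e-06 at 100% of 45141 probe sets, against 0.00222% without diet and shRNA). A level therefore cannot be compared between cell lines, while a diet difference within SCC25 is free of that shift. Of the probe sets, 28898 had 1 gene in the platform annotation and 28689 of these were matched by identifier to RefSeq names, 551 had several genes, and 15692 had none. The probe set with the highest mean stood for each of 17097 genes, and the lowest 25% of genes were left out.

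Differences (palmitate minus control) were tested with limma 3.58.1 in R 4.3.3, by lmFit and eBayes over the 12 SCC25 arrays (8 residual degrees of freedom), with Benjamini-Hochberg adjustment over all 12823 genes and a threshold of 0.05. The shCD36 contrast came from the same fit. The VDH15 contrast was fitted to 11 averages of the labelled biological replicates, those of shCD36 tumours included, with terms for experiment and condition. The number of arrays limits the precision. Named genes were the 15 highest and 15 lowest whose arrays did not overlap, up to 4 genes with the smallest p-value per list, the 6 highest and lowest differences from shCD36, the 3 smallest p-values a direction for VDH15, and Cd36, Gal and its receptors; predicted genes were passed over. The comparison, the gene lists and the promoters shown were chosen with earlier results of these data known, and genes named only as being in the lowest 25% were picked after their values were seen. The fit was tested on simulated data. Alternatives were single arrays left out, a replicate block, other filters, the mean of all probe sets, a second quantile normalization, a trended robust variance prior and fewer samples in the fit.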

Additional observations from a re-analysis of the deposited data

Results flagged for a closer look

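The palmitate difference in SCC25 tumours differed between the non-targeting and the shCD36 vector at 1992 genes by a limma test of the difference itself. Among the 6 highest, the difference of differences was 6.39 log2 for Col3a1, 6.15 log2 for Tnfaip6, 5.71 log2 for Ptx3, 5.23 log2 for Col1a1, 5.19 log2 for Dpt and 5.15 log2 for Thbs4. Among the 6 lowest it was -5.60 log2 for Krt36, -5.19 log2 for Sprr2d, -4.94 log2 for Krt35, -4.44 log2 for Krt84, -3.90 log2 for Ly6g6c and -3.66 log2 for Sprr2a1. Each of the 4 groups is 1 labelled biological replicate, so the group and its biological replicate cannot be told apart.

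Probe sets without exactly 1 listed gene took no part in the comparisons. Of 8978 such probe sets above the filter, 202 (2.25%) differed between the diets by at least 1 log2 at a limma adjusted p under 0.05, 168 higher and 34 lower on palmitate.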

How the results depend on the processing

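The counts of 2454 and 456 genes that differed between diets, and of 1992 that differed between the vectors, stayed within 1.5 times of these values under every alternative run. With single arrays left out they were 1977 to 2518, 447 to 472 and 1632 to 2083. With a replicate block they were 2403, 456 and 1909, and same-numbered arrays did not deviate together (correlations of 0.06, 0.11 and -0.03 between the diets), so the number was not taken as a pairing. The lowest other counts were 2081, 385 and 1769, and the highest 2967, 469 and 2180. The count of 0 for SCC25 against VDH15 was also 0 with other filters, the mean of all probe sets, the trended robust prior, fewer averages and single non-targeting arrays left out; it was not run with the replicate block or a second quantile normalization. Of 230 named genes, 3 turned sign: Hba-a1 (-0.43 log2, arrays quantile normalized again), H2-DMa (-0.014 to 0.14 log2 with single arrays left out) and Gal (-0.16 to 0.0063 log2). Neither H2-DMa nor Gal passed the test. Leaving out 1 non-targeting array ended the call of 6 to 12 of the named genes. The replicate block ended those of Pax9, Cd3e and Hspb1. With more low genes left out, so that fewer members remain, the list medians became 0.22 log2 for Schwann cell repair, 0.19 log2 for myelin and -1.62 log2 for the cornified envelope. With quantile normalization again they were -0.12 log2 for basal keratinocytes and -0.14 log2 for ribosomal proteins. With the mean of probe sets the axon guidance median was 0.0020 log2 and that of repair genes 0.15 log2. The causes were not tested. Each diet is 1 labelled biological replicate, and values near the bottom of the range limit the folds of the lowered genes.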
